A study of Mus musculus with 6 samples.

Results

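The mouse genes named Zfp and a number encode zinc-finger proteins, and 333 of them had a row in a table of 24369 genes counted in germinal vesicle oocytes, the fully grown oocytes that have not yet resumed meiosis. The 271 described here had at least 10 read counts in each of the 6 libraries. The libraries formed 3 groups of 2: oocytes of a control group, Sudan I-treated oocytes (the agent is an azo dye made for industrial colouring), and oocytes exposed to Sudan I with melatonin as a rescue (melatonin is the pineal hormone and an antioxidant). Strain, age, dose, route and length of exposure were not given in the sources used here, and neither was the animal or pool behind each library. The comparisons therefore measure the spread between these libraries, which may be technical. The members were selected on their read counts, so their detection is a description and carries no test.

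A zinc finger of the C2H2 type is a short fold held by a zinc ion between a pair of cysteines and a pair of histidines, and rows of such fingers read DNA. Many of these proteins also carry a KRAB domain, which binds the corepressor KAP1 (Trim28); KAP1 brings in the histone methyltransferase Setdb1, and the bound locus is silenced. In oocytes and early embryos this system is known for holding retroelements silent and, through Zfp57, for keeping DNA methylation at imprinted genes.

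The promoters of 4 members that the results below turn on are shown first. Zfp57 was the most abundant member, Zfp345 and Zfp961 had the smallest unadjusted p between the Sudan I and melatonin groups, and Zfp715 between the melatonin and control groups; none of the 3 passed the main test after adjustment. Each sequence is the RefSeq promoter on build GRCm38.p6, from 250 bases before to 50 bases after the annotated start, read along the gene's own strand. Capitals mark, on either strand, the CCAAT box, the TATA box TATAAA, the GC box written GGGCGG, a homeodomain core spelled TAATTG, the E-box pattern CANNTG and the core TGCGCA of sites for the factor Nrf1. The Zfp57 promoter lies at chr17:37000913-37001212 on the plus strand, Zfp345 at chr2:150485014-150485313 on the minus strand, Zfp961 at chr8:71950816-71951115 on the plus strand, and Zfp715 at chr7:43313251-43313550 on the minus strand.
Zfp57: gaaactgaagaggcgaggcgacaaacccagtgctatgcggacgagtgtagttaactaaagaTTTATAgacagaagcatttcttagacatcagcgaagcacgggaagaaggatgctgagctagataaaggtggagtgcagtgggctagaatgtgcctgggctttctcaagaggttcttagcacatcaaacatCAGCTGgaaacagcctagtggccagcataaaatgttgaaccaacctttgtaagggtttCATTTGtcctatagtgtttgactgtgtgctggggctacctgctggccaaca
Zfp345: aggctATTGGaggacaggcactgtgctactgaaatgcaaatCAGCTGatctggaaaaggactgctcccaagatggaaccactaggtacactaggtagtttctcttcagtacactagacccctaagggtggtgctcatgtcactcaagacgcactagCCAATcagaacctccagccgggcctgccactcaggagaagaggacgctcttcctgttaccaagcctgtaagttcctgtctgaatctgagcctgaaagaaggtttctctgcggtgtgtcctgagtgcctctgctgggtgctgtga
Zfp961: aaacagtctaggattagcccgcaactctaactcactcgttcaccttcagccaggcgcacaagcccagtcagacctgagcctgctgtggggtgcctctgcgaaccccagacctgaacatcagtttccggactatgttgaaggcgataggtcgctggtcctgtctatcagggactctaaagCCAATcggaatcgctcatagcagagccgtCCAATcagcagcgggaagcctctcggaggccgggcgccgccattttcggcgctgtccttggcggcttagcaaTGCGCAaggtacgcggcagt
Zfp715: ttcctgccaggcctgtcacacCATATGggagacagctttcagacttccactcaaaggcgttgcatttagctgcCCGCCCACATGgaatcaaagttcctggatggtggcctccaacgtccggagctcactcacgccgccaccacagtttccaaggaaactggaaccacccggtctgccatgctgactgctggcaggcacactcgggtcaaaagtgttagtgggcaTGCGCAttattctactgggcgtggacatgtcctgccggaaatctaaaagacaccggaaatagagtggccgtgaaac
Zfp345 and Zfp961 each held 2 CCAAT motifs, and Zfp57 and Zfp715 held 0. Zfp57 held 1 TATAAA motif, and Zfp715 held 1 GGGCGG motif that overlaps a CANNTG motif. TGCGCA was found once in Zfp961 and once in Zfp715. The 4 sequences held 6, 4, 21 and 13 CG dinucleotides in the order given.

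RefSeq promoters were matched by symbol for 226 members. At least 1 CCAAT motif stood in a promoter of 50% of these members, against 41.1% of all 27025 genes with a promoter of that length. GGGCGG was found in 51.8% against 38.2%, and TGCGCA in 13.7% against 8.79%. TATAAA was found in 8.41% against 15.7%, TAATTG in 5.31% against 9.22%, and CANNTG in 72.1% against 74.99%. The median number of CG dinucleotides in a gene's richest promoter was 16 for the members and 8 for all genes. The pooled shares hide a split by the KRAB pattern defined below. GGGCGG was found in 40.6% of the 128 members with the pattern and 66.0% of the 97 without. For TGCGCA the shares were 11.7% and 16.5%, for CANNTG 76.6% and 66.0%, and for CCAAT 52.3% and 46.4%. The median CG numbers were 11 and 22. The members were chosen as detected genes, whereas the 27025 genes were not required to be detected here. Shares over the tested genes were not computed. A feature of Zfp genes and one of detected genes therefore cannot be told apart. These shares describe letters in a window and say nothing of binding.

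Library totals lay between 20669373 and 26065453 counts, and the members held 1.37% to 1.45% of them, with the lowest share in melatonin library 2. Levels below are CPM, read counts scaled to a common library size in tested genes after TMM scaling. The 10 oocyte markers, among them Gdf9, Bmp15 and the zona pellucida genes, summed to 21189 to 23213 CPM. The 22 granulosa and cumulus cell markers summed to 654 to 733 CPM. The 6 theca and stroma markers summed to 1.28 to 3.22 CPM, and the 6 blood and immune markers to 0.857 to 1.504 CPM with 2 of them at 0 in all libraries. The 4 endothelial markers summed to 103 to 131 CPM, nearly all of it Pecam1 (78.1 to 97.9 CPM) and Tek (20.04 to 35.9 CPM), while Cdh5 reached at most 0.225 CPM. The oocyte sum overlapped between all groups. The granulosa sum was higher in both melatonin libraries (676.8 and 732.9 CPM) than in both Sudan I libraries (675.9 and 675.1). The theca and stroma sum was highest in the Sudan I libraries (3.22 and 2.48 CPM, next 2.20). The endothelial sum was lowest in the melatonin libraries (117.9 and 102.8 CPM, next 118.1). The blood and immune sum was highest in the control libraries (1.504 and 1.029 CPM, next 1.020). In the granulosa, endothelial and blood sums the nearest libraries were thus almost level. The part of these cells in the results was not tested.

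Of the 62 numbered Zfp genes left out, 50 had a mean under 10 counts, 6 of these with 0 counts in every library. The other 12 had a mean of at least 10 but dropped below 10 in at least 1 library. Just inside the minimum stood Zfp637, with 17 and 40 counts in the control libraries, 19 and 30 in the Sudan I libraries and 10 and 16 in the melatonin libraries. Just outside stood Zfp503, a transcriptional cofactor, with 36 and 47, 16 and 35, and 9 and 24 counts in the same order. Zfp712, with 22 and 42, 18 and 20, and 5 and 1 counts, was left out through its melatonin libraries. Zfp462, with 2 and 7, 25 and 14, and 18 and 8 counts, was lost in 3 libraries, both control ones included, and Zfp827 through Sudan I library 2, at 3 counts. A minimum in every library thus removes genes that are low in a single group, and counts over the members leave such genes out.

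Positions and coding sequences came from GENCODE M21 on build GRCm38; 270 members matched by symbol and 1 by an older symbol. Of the 270 with a translated coding sequence, 256 held at least 1 C2H2 finger, with a median over the 270 of 10 and a maximum of 33 fingers, and 14 held none. A KRAB pattern, defined as at least 12 of 17 conserved positions, was found in 143 members and was absent from 127. The same pattern was found in 26 of 21789 coding genes with no finger. Members with the KRAB pattern had a median of 12 fingers, a median GC content of 41.7% and a median exon length of 4224 bases. Members without it had a median of 6 fingers, a GC content of 50.1% and an exon length of 5443 bases. The split by KRAB pattern and those by GC content and by cluster were made after the fold changes had been seen.

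The genes were spread over 20 chromosomes and concentrated on a few. Chromosome 7 held 71 members, of which 38 had the KRAB pattern, chromosome 17 held 33 with 28, chromosome 8 held 22 with 14, and chromosome 13 held 21 with 17. Runs of at least 4 members with gaps of no more than 500 kilobases formed 15 clusters that held 117 members, 88 of them with the KRAB pattern. Because clustered zinc-finger genes arose by duplication, sequence shared with other genes was measured as the share of a member's 50-base words found in another gene. At least 20% of the words were shared in 33 members, and 75 members shared none. Reads from shared stretches can be assigned to the wrong copy, and 45 members also overlapped another coding gene, so their counts are less certain. Zfp57 and Zfp715 shared no word, and Zfp961 shared 2.84% and overlapped Cyp4f18. Zfp345 shared 29.9% of its words with other genes, and 18.05% with Gm14139, which stood at 4.24 to 9.83 CPM. The count of Gm14139 is uncertain for the same reason. The part of misassigned reads in the level of Zfp345 was not tested.

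Levels spanned more than 3 orders of magnitude. The median member stood at 17.6 CPM, 30 members reached 100 CPM or more, and 103 lay under 10 CPM. Zfp57 stood at 2272 CPM ± 97.5 (SD, n = 6) and alone held 16.0% of the members' summed CPM. The 10 most abundant members held 41.6% and the top 20 held 53.7%. The median was 12.4 CPM for members with the KRAB pattern and 21.5 CPM for those without. Fewer oocytes with a transcript and less transcript per oocyte cannot be told apart in these bulk libraries.

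Levels per length compare genes with one another. Zfp57 reached 600.1 ± 25.8 CPM per kilobase of exon (SD, n = 6) and stood well clear of every other member. Zfp296, an interactor of the reprogramming factor Klf4, followed at 152 ± 10.3 CPM per kilobase, and Zfp750, a factor of epidermal differentiation, at 135 ± 11.98. The SDs of these 2 neighbours in the order overlapped. Zfp592 (109 ± 8.22 CPM per kilobase), which belongs to the Z3 chromatin complex with Zfp532 and Zfp687, Zfp212 (106 ± 3.84), Zfp655 (100.4 ± 10.5) and Zfp957 (98.0 ± 5.23) overlapped in their SDs. Zfp108 came next at 71.4 ± 2.72 CPM per kilobase. Of these 8, Zfp57 and Zfp108 carried the KRAB pattern.

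**Figure D1:**
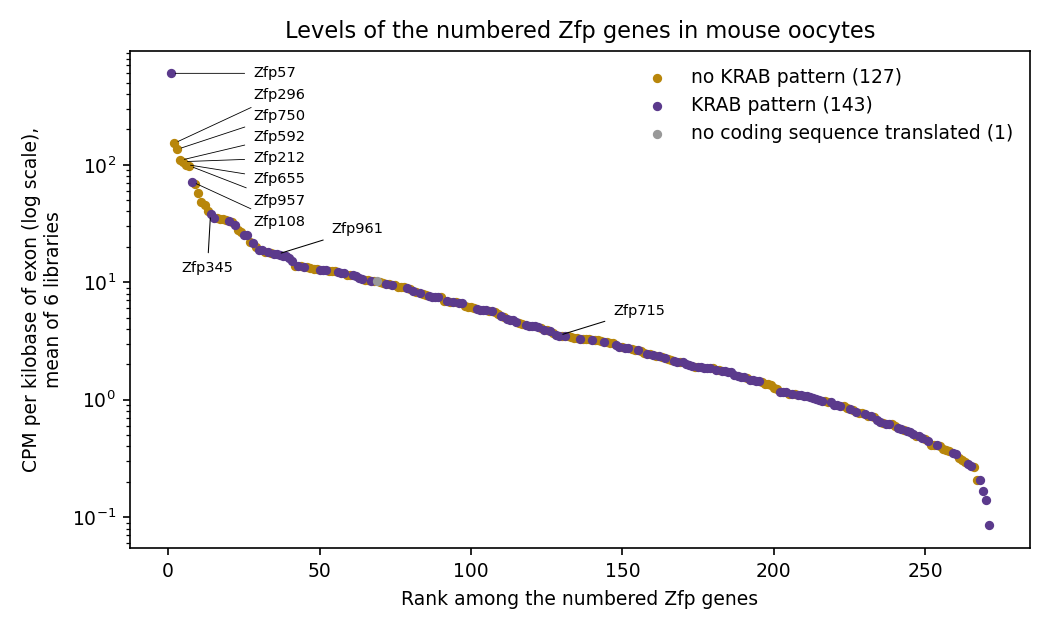
Mean level of each of the 271 numbered Zfp genes over 6 libraries, in CPM per kilobase of exon on a log axis, ranked from the highest. Zfp57 stands alone at 600.1 CPM per kilobase, and members with and without the KRAB pattern are mixed along the rest of the curve.

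The median variation between libraries was about the same in the members as in tested genes in general. Their median coefficient of variation over the 6 libraries was 14.4%, against 13.9% for all tested genes. In 143 members the highest library was at most 1.5 times the lowest. In 48 members it was over 2 times the lowest. The same counts were not made for all tested genes. The 6 widest ranges on the log2 scale belonged to Zfp800, Zfp266, Zfp1, Zfp953, Zfp275 and Zfp931, all with means between 1.18 and 2.63 CPM, where counting error is large. The 95% interval of the log2 fold change stayed within 1 of 0 in all 3 comparisons for 190 members. Taken singly, the comparisons gave 209, 210 and 206 of 271 members, beside 9878, 9901 and 9731 of 14124 tested genes.

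The first comparison, Sudan I against control, addresses the effect of the dye on these transcripts. No member passed edgeR's quasi-likelihood test at a Benjamini-Hochberg adjusted p under 0.05, and the smallest adjusted p was 0.9999. Of all 14124 tested genes, 0.00708% passed. At an unadjusted p under 0.05 stood 10 members, or 3.69%, against a background of 3.16% of tested genes. Higher in Sudan I were Zfp345, Zfp420, Zfp69 and Zfp407 (background 1.61%), and lower were 6, namely Zfp800, Zfp715, Zfp266, Zfp217, Zfp808 and Zfp516 (background 1.55%). DESeq2 called no member either (0.0779% of tested genes passed there) and put 9 members at an unadjusted p under 0.05.

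Zfp345, a KRAB zinc-finger gene on chromosome 2 (150470991 to 150485091, minus strand) with a CCAAT pair in its promoter, stood at 103.5 and 87.6 CPM in control libraries 1 and 2, 149.7 and 125.6 in the Sudan I libraries, and 85.4 and 76.2 in the melatonin libraries. Both Sudan I libraries were above all the others, and no pair of groups overlapped. The log2 fold change in Sudan I against control was 0.53 (edgeR adjusted p = 0.9999, SE 0.13), with a 95% interval of 0.24 to 0.82 before adjustment. Without a filter on low counts the adjusted p was 0.0136, and over all alternatives run for this comparison it ranged from 0.0136 to 0.99998.

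Zfp69, linked to diabetes susceptibility in mice, stood at 21.1 and 24.9 CPM in control, 30.9 and 33.0 in Sudan I, and 34.1 and 33.5 with melatonin. Control was the low group, and the 2 exposed groups lay close together. Its log2 fold change was 0.47 (SE 0.15) in Sudan I and 0.55 (SE 0.15) with melatonin, each against control. Zfp420, which has 19 fingers, stood at 17.6 and 18.7, 24.998 and 26.9, and 24.4 and 21.7 CPM in the same order of groups. Zfp407, a regulator of glucose uptake genes in adipocytes, stood at 99.7 and 110.7, 138.3 and 118.3, and 128.5 and 126.8 CPM. In these 3 genes both exposed groups were above control without overlap, and no edgeR adjusted p was below 0.956 in the fit of all 6 libraries; without a filter on low counts that of Zfp69 was 0.256 with melatonin against control. Without Sudan I library 1 the log2 fold change of Zfp407 in Sudan I was 0.17 in place of 0.29.

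Among the members that were lower in Sudan I, Zfp217, a cofactor of the CoREST and LSD1 repressor complex, stood at 54.5 and 71.5 CPM in control, 47.1 and 50.8 in Sudan I, and 50.05 and 49.997 with melatonin. Its log2 fold change in Sudan I was -0.37 (edgeR adjusted p = 0.9999, SE 0.15). The exposed groups did not overlap control, and control library 2 was the highest; without it the log2 fold change was -0.15, and without control library 1 it was -0.55. Zfp800, Zfp266 and Zfp808 had log2 fold changes of -1.36 (SE 0.51), -1.30 (SE 0.53) and -1.20 (SE 0.52), at control levels of 1.504 to 4.12 CPM; that of Zfp808 was -0.76 without Sudan I library 1 and -1.81 without library 2. Zfp516, a factor of brown fat, stood at 18.2 and 18.1 CPM in control, 11.7 and 12.9 in Sudan I, and 19.96 and 11.2 with melatonin, so its melatonin libraries spanned both other groups. Over all members, the median log2 fold change in Sudan I was -0.009 without control library 2 and -0.07 without control library 1.

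**Figure D2:**
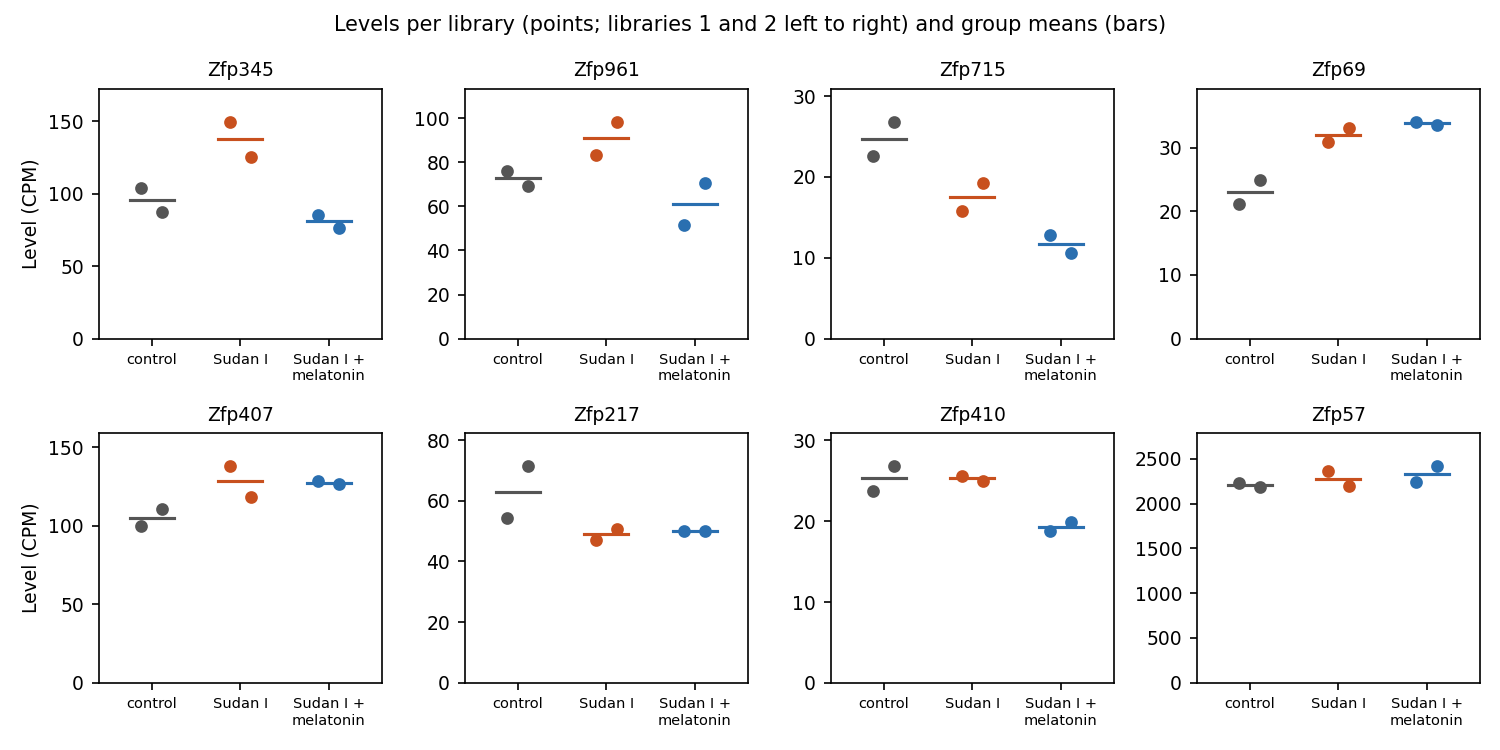
CPM of 8 members in each library (points, library 1 left and library 2 right in each group) with the mean of each group (bar), each panel on an axis from 0. Zfp345 and Zfp961 are highest in the Sudan I libraries, Zfp715 is highest in control and lowest with melatonin, and Zfp57 stays between 2185 and 2421 CPM.

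The second comparison, Sudan I plus melatonin against Sudan I, asks what melatonin changed in exposed oocytes. It shares the Sudan I libraries with the first comparison, so opposite signs in the 2 are favoured by the shared libraries and are given side by side only. No member passed at an edgeR adjusted p under 0.05, and 0.0% of tested genes did. At an unadjusted p under 0.05 stood 15 members, or 5.54% (background 3.83%). Of these, 14 were lower with melatonin (background 2.05%) and Zfp341 was higher (background 1.78%). DESeq2 called Zfp345 (background 0.0637%) and put 12 members at an unadjusted p under 0.05.

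Zfp345 had the smallest p of the members here, with a log2 fold change of -0.77 (edgeR adjusted p = 0.547, SE 0.13) and a 95% interval of -1.06 to -0.48. With melatonin its level was 0.587 times that of the Sudan I group. DESeq2 gave an adjusted p of 0.00167 for it, and over the alternatives the adjusted p ranged from 4.1e-06 to 0.9996. Its level with melatonin was also below control, at a log2 difference of -0.24 (SE 0.13), which was -0.11 without control library 1 and -0.16 without melatonin library 2.

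Zfp961, a KRAB gene on chromosome 8 (71951038 to 71993792, plus strand), stood at 76.1 and 69.4 CPM in control, 83.5 and 98.6 in Sudan I, and 51.5 and 70.5 with melatonin. The Sudan I libraries were the highest, and melatonin library 1 was the lowest of the 6. Melatonin library 2 lay between the control libraries. The log2 fold change with melatonin against Sudan I was -0.58 (edgeR adjusted p = 0.994, SE 0.16), and -0.36 without melatonin library 1.

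Zfp958 stood at 86.8 and 81.8 CPM in control, 97.7 and 87.8 in Sudan I, and 79.2 and 69.8 with melatonin. Zfp943 stood at 30.2 and 27.0, 31.9 and 30.8, and 25.5 and 22.4 CPM in the same order. Both carry the KRAB pattern, and in both every melatonin library was below every other library. Their log2 fold changes against Sudan I were -0.32 (SE 0.12) and -0.39 (SE 0.15). With a correction for GC content, added after seeing the data, they were -0.19 and -0.25. Neither was then at an unadjusted edgeR p under 0.05. Zfp341, whose human counterpart activates the STAT3 gene, stood at 38.5 and 39.6 CPM in control, 34.8 and 37.4 in Sudan I, and 43.7 and 53.5 with melatonin, a log2 fold change of 0.43 (edgeR adjusted p = 0.994, SE 0.15) that was 0.28 without melatonin library 2. The next members in the higher direction missed an unadjusted p of 0.05: Zfp513 at 0.22 (SE 0.10), Zfp579 at 0.82 (SE 0.49), Zfp598 at 0.16 (SE 0.10) and Zfp39 at 0.47 (SE 0.30) on the log2 scale. Leaving out 1 library took these 4 down to 0.14, 0.53, 0.10 and 0.24, without melatonin library 2 for Zfp513 and without library 1 for the others.

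The third comparison, Sudan I plus melatonin against control, asks how far the rescued oocytes stood from unexposed ones. It shares libraries with both others. No member passed at an edgeR adjusted p under 0.05, and 0.00708% of tested genes did. At an unadjusted p under 0.05 stood 22 members, or 8.12% (background 4.60%), of which 20 were lower (background 2.82%) and 2, Zfp69 and Zfp407, were higher (background 1.78%). With each library left out in turn, the members' median log2 fold change ranged from -0.166 to -0.064.

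Zfp715, a KRAB gene on chromosome 7 (43296197 to 43313294, minus strand), had the smallest p. It stood at 22.7 and 26.9 CPM in control, 15.8 and 19.3 in Sudan I, and 12.8 and 10.5 with melatonin. The 3 groups formed a descending series with no overlap, the melatonin group standing at 0.471 times control. The log2 fold change was -1.09 (edgeR adjusted p = 0.490, SE 0.19, 95% interval -1.52 to -0.65) against control and -0.59 (SE 0.19) against Sudan I. Sudan I against control gave -0.50 (SE 0.19). DESeq2, which called 0.085% of tested genes and no other member here, gave an adjusted p of 0.00228 against control, and the alternatives ranged from 0.000139 to 1.

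Zfp395, also called the Huntington disease gene regulatory region-binding protein, stood at 15.7 and 25.6 CPM in control, 12.3 and 16.9 in Sudan I, and 10.6 and 9.80 with melatonin, a log2 fold change of -1.02 (SE 0.26) with melatonin against control. Zfp617 gave -0.93 (SE 0.26), Zfp1 -1.55 (SE 0.45) and Zfp644, a partner of the histone methyltransferase G9a, -0.85 (SE 0.25). In each of these 4 the melatonin libraries were below both control libraries, and the edgeR adjusted p was 0.956. Without control library 2 the values of Zfp395 and Zfp644 were -0.62 and -0.45. Zfp617 shared 42.2% of its 50-base words with another gene, and Zfp1 stood at only 0.816 to 4.12 CPM. In the higher direction Zfp691 gave 0.52 (SE 0.25) and missed an unadjusted p of 0.05; it gave 0.27 without control library 1 and 0.85 without control library 2.

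Seen over all 271 members, single differences were small and the melatonin comparisons leaned one way. The median log2 fold change was -0.02 in Sudan I against control, -0.08 with melatonin against Sudan I, and -0.12 with melatonin against control. All tested genes gave medians of -0.002, -0.006 and -0.005. Below 0 lay 57.6%, 63.8% and 73.1% of the members, against 50.6%, 51.2% and 51.1% of all tested genes. Without overlap between the groups, 42 members were higher and 51 lower in the first comparison (background 16.1% and 15.9%), 26 and 67 in the second (14.8% and 15.9%), and 20 and 74 in the third (16.5% and 17.0%).

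**Figure D3:**
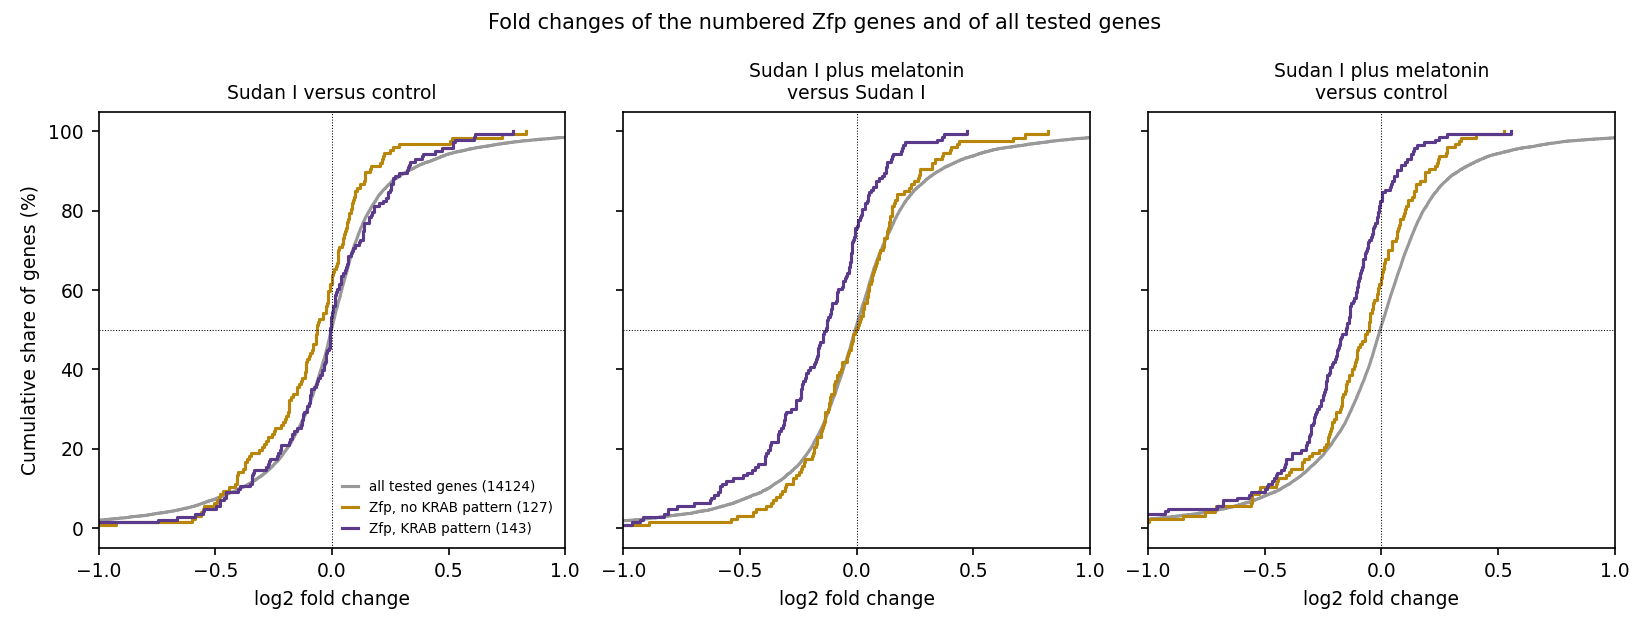
Cumulative share of genes (%) by log2 fold change in the 3 comparisons, for all tested genes and for numbered Zfp genes with and without the KRAB pattern, with the axis limited to 1 on either side of 0. The KRAB curve runs to the left of the others in both melatonin comparisons, crossing 50% at -0.13 and -0.15.

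Members with the KRAB pattern held the larger share of the lean in the second comparison, and less clearly so in the third once GC content was taken into account. Their median was -0.01 in Sudan I against control, -0.13 with melatonin against Sudan I and -0.15 with melatonin against control. Lower with melatonin were 108 of 143 against Sudan I and 118 of 143 against control. Members without the pattern gave medians of -0.07, -0.002 and -0.06, with 63.0% lower in the first comparison and 63.0% in the third. Their median relative level was -0.002 in control library 1 and 0.10 in control library 2. The 252 other tested genes with fingers and without the pattern gave -0.06, -0.002 and -0.06. In the second comparison 12 members with the pattern were lower at an unadjusted p under 0.05 and 0 were higher (background 2.05% and 1.78%), and without the pattern 2 were lower and 1 was higher. In the third comparison 10 were lower and 1 higher with the pattern, and 10 and 1 without (background 2.82% and 1.78%). The 68 other tested genes with fingers and the pattern, which bear other names, gave medians of -0.03, -0.11 and -0.15. Restricting the members to the 120 with the pattern and under 20% of shared words gave -0.13 in the second comparison and -0.14 in the third. The difference between members with and without the pattern was not tested.

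The lean was unequal between the 2 melatonin libraries. Relative to each gene's mean over the 6 libraries, the median log2 level of the members with the KRAB pattern was 0.05 and 0.08 in the control libraries, 0.05 and 0.08 in the Sudan I libraries, and -0.02 and -0.20 in melatonin libraries 1 and 2. Both melatonin libraries were below the other 4, and library 2 was far lower. In melatonin library 2, 79.0% of these members were below their own mean, against 55.9% in library 1. The summed level of the KRAB members without Zfp57 was 3827 and 3877, 3974 and 3857, and 3694 and 3294 CPM in the same order. Without melatonin library 2 the KRAB median moved from -0.13 to -0.09 in the second comparison and from -0.15 to -0.10 in the third, and without library 1 to -0.27 and -0.26.

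**Figure D4:**
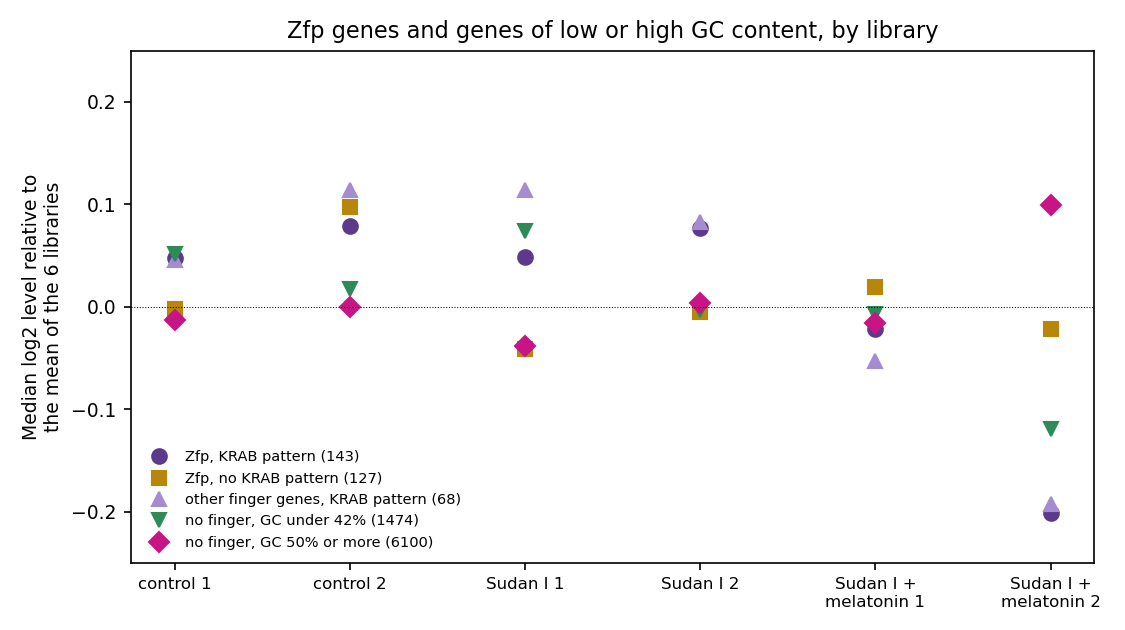
Median log2 level in each library relative to each gene's mean over the 6 libraries, for numbered Zfp genes with and without the KRAB pattern, other finger genes with the pattern, and genes without fingers of low or high GC content. Melatonin library 2 holds the lowest KRAB median, -0.20, together with -0.12 for genes of low GC content and 0.10 for genes of high GC content.

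Genes of low and high GC content moved apart mainly in melatonin library 2, and the other way in Sudan I library 1. Relative to each gene's mean, genes outside the family with no finger and under 42% GC had library medians of 0.05 and 0.02 in control. They had 0.07 and -0.003 in Sudan I, and -0.007 and -0.12 with melatonin. Those of 50% GC or more had -0.04 and 0.004 in Sudan I, and -0.02 and 0.10 with melatonin. Among genes outside the family with no finger, the 1474 with under 42% GC gave a median of -0.10 with melatonin against Sudan I and -0.09 against control. The 5230 of 42% to 50% gave -0.04 and -0.03, and the 6100 of 50% or more gave 0.06 and 0.05. In Sudan I against control the 3 classes gave 0.004, 0.01 and -0.01. The 72 KRAB members under 42% GC gave -0.22 with melatonin against Sudan I, and the 71 others gave -0.08. Of the members without the pattern, the 22 under 42% GC gave -0.14 and the 105 others gave 0.05. Under 42% GC, 84.7% of the KRAB members and 81.8% of those without the pattern lay below 0 in this comparison. So did 72.9% of the 1474 genes outside the family. At 42% GC or more, 66.2% of the KRAB members and 43.8% of those without the pattern lay below 0. With melatonin against control and under 42% GC, 91.7% of the KRAB members and 90.9% of those without the pattern lay below 0, at medians of -0.19 and -0.14; at 42% or more the medians were -0.10 and -0.04. After a correction for GC content, added after seeing the data, the KRAB median was -0.06 in the second comparison and -0.07 in the third, beside 0 and -0.04 for members without the pattern, and the members at an unadjusted p under 0.05 in the second comparison were 7 in place of 15. The corrected log2 fold changes of Zfp345, Zfp961, Zfp715 and Zfp341 in the second comparison were -0.64, -0.49, -0.50 and 0.35. Each stayed at an unadjusted edgeR p under 0.05. Beyond that correction, the part of GC content in these values was not tested.

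**Figure D5:**
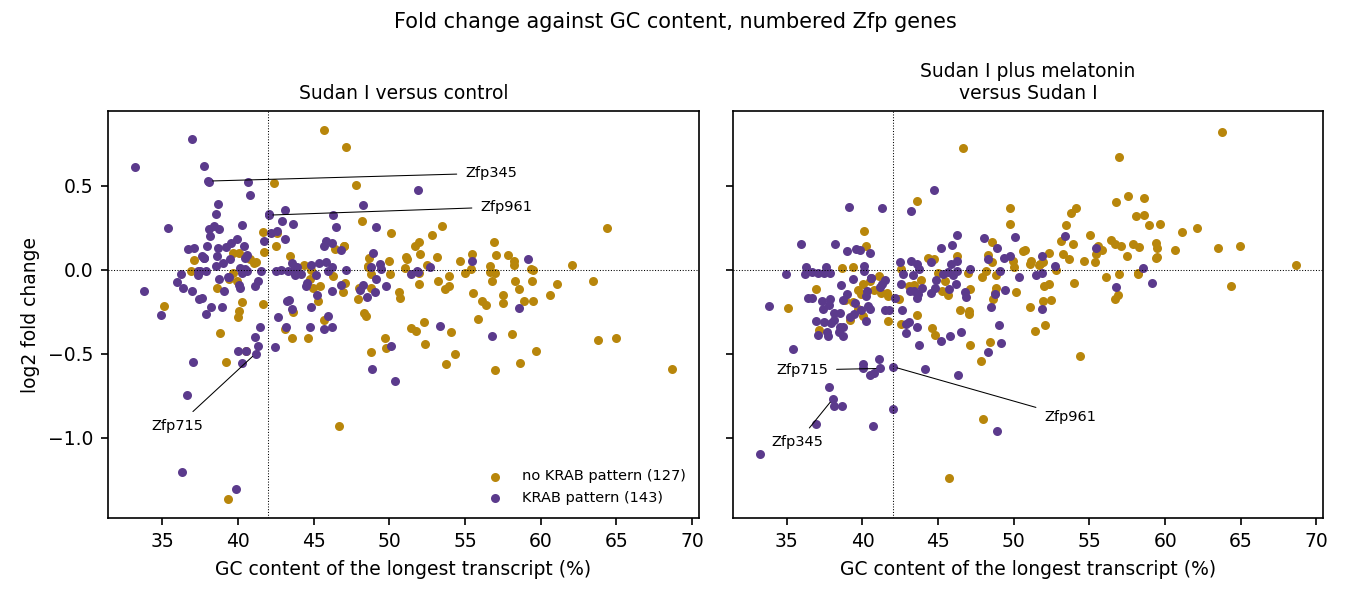
Log2 fold change against the GC content of the longest transcript (%) for the numbered Zfp genes, with the 42% limit as a dotted line. With melatonin against Sudan I the members under 42% GC lie mostly below 0 (KRAB median -0.22), whereas in Sudan I against control they spread around 0 (KRAB median -0.01).

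The 15 clusters showed where these members lie. The cluster medians were below 0 in 9 clusters for Sudan I against control, 12 for melatonin against Sudan I, and 14 for melatonin against control. On chromosome 17, from 21008903 to 23564238, 17 members of which 16 had the KRAB pattern gave a median of -0.31 with melatonin against Sudan I; 14 were lower, 5 of them at an unadjusted p under 0.05, and Zfp943 is one of these. On chromosome 13, from 67069399 to 67827002, 12 KRAB members gave -0.32 with 10 lower and 0 at that p. On chromosome 7, from 4915217 to 5053723, 6 members without the pattern gave 0.14. Of all tested genes, 51.2% were lower in this comparison and 2.05% were lower at an unadjusted p under 0.05. The named clusters had medians near the lowest and the highest of the 15. Their values are without a correction for GC content, and no cluster was tested as a unit. Neighbours in a cluster share sequence and GC content, and they are not independent of one another.

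By role, Zfp57, which keeps DNA methylation at imprinted regions, stood at 2224 and 2185 CPM in control, 2364 and 2192 in Sudan I, and 2245 and 2421 with melatonin. The Sudan I libraries overlapped both other groups, and both melatonin libraries were above both control libraries. Its log2 fold changes were 0.05, 0.03 and 0.08 (SE 0.09 each), and the 95% intervals were -0.16 to 0.26, -0.18 to 0.24 and -0.13 to 0.29. Zfp445, which works with Zfp57 at imprinted regions, stood at 68.8 and 64.3, 77.6 and 54.6, and 71.5 and 57.9 CPM. Zfp568, a repressor of a placental Igf2 transcript, stood at 54.9 and 54.2, 50.2 and 58.9, and 63.0 and 46.3 CPM. In both genes each group overlapped the others. Zfp809, which silences endogenous retroviruses, Zfp819, which represses retroelements, and Zfp708, which binds RMER19B elements, had means of 3.32, 2.43 and 4.64 CPM. Zfp708 shared 94.9% of its words with another gene, so its count is uncertain. Of these 6, 0 reached an unadjusted p under 0.05 in any comparison; 3.16%, 3.83% and 4.60% of all tested genes did, so lists this short would hold few or none.

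The list on RNA and ribosomes had 7 members here, and that on the genome and the spindle had 6; neither had a member at an unadjusted p under 0.05, beside the same 3.16% to 4.60% of all tested genes. Zfp598, a ubiquitin ligase that marks collided ribosomes, stood at 266 CPM ± 17.3 (SD, n = 6), the highest of the first list. Zfp36 (tristetraprolin), which triggers decay of mRNAs with AU-rich elements and has no C2H2 finger, stood at 9.34 ± 3.18 CPM, and its melatonin libraries were the lowest and the highest at 5.43 and 14.7 CPM. Zfp346, which binds double-stranded RNA, stood at 13.8 and 18.2, 11.9 and 11.6, and 14.0 and 11.3 CPM. In Zfp346 both Sudan I libraries were below both control libraries, at a log2 fold change of -0.44 (SE 0.21). Zfp207 (BuGZ), a spindle assembly and kinetochore factor, stood at 225 ± 15.6 CPM. Zfp451, a SUMO ligase, at 143 ± 7.54 CPM, and Zfp91, a ubiquitin ligase, at 139 ± 9.53 CPM, were steady, and the median coefficient of variation of the genome and spindle list was 6.70%. Zfp830, linked to genome integrity in oocytes, stood at 69.0 and 67.6, 69.7 and 68.7, and 78.8 and 76.4 CPM, with both melatonin libraries above the other 4 at a log2 fold change of 0.17 (SE 0.11) against Sudan I.

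Of 22 listed transcription factors, 20 were members, from Zfp42 (Rex1, a pluripotency marker) at 2.12 CPM to Zfp592 at 808 CPM. At an unadjusted p under 0.05 and lower stood 2 in Sudan I against control (Zfp217 and Zfp516), 1 with melatonin against Sudan I (Zfp410) and 4 with melatonin against control (Zfp217, Zfp281, Zfp410 and Zfp644), and 0 were higher. The backgrounds for lower were 1.55%, 2.05% and 2.82%. The list medians were -0.09, -0.04 and -0.15, beside -0.002, -0.006 and -0.005 for all tested genes. Zfp410, which activates the gene of the chromatin remodeller Chd4, stood at 23.8 and 26.9 CPM in control, 25.6 and 24.98 in Sudan I, and 18.8 and 19.9 with melatonin. Both melatonin libraries were below the other 4, at a log2 fold change of -0.39 (SE 0.15) against either group. Chd4 itself stood at 426 and 424, 450.04 and 416, and 499 and 469 CPM, with both melatonin libraries above the other 4 at a log2 fold change of 0.16 (SE 0.10) against Sudan I. Zfp281, a pluripotency factor, stood at 16.9 and 21.8, 14.1 and 16.3, and 14.3 and 14.0 CPM, with control library 2 the highest. The Z3 members Zfp592, Zfp532 and Zfp687 had log2 fold changes between -0.13 and 0.11 in all comparisons.

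The partners of KRAB proteins in silencing were taken from a list of 42 genes, of which 41 were tested. In the 3 comparisons 16, 20 and 18 were higher and 25, 21 and 23 lower, and edgeR called 0 at an adjusted p under 0.05. At an unadjusted p under 0.05 stood Mta2 in the first, Pphln1 in the second, and Rif1, Pphln1 and Mta2 in the third, all lower, which is 2.44%, 2.44% and 7.32% of the list beside 3.16%, 3.83% and 4.60% of all tested genes. The next smallest p belonged to Dppa3 (log2 fold change 0.19, SE 0.11) and the maintenance DNA methyltransferase Dnmt1 (-0.16, SE 0.10) in the first comparison, and to Rif1 (-0.24, SE 0.12) and Dnmt3l (0.18, SE 0.10), a cofactor of DNA methylation in growing oocytes, in the second. Trim28 (KAP1) stood at 462 and 485, 466 and 511, and 427 and 536 CPM. Setdb1 stood at 392 and 383, 419 and 409, and 441 and 371 CPM. The 2 melatonin libraries held the lowest and the highest values of Trim28 and the highest and the lowest of Setdb1, so neither gene separated that group. Pphln1, a subunit of the HUSH complex, stood at 106 and 117, 112 and 115, and 95.2 and 91.4 CPM, both melatonin libraries being below the other 4, at a log2 fold change of -0.28 (SE 0.10) against Sudan I.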

How the data were processed

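RNA was measured by sequencing in 6 libraries of mouse germinal vesicle oocytes, 2 per group. The authors deposited 1 table of raw read counts per gene symbol; the sheet's name and its whole-number values with unequal totals show the unit. The labels name only a standard Illumina library protocol; the aligner, counter, strand setting and build were not given in the sources used here. Dates replaced the symbols of 27 rows, and 0 sample columns were left unused.

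Counts of all 6 libraries were fitted in R 4.3.3 with edgeR 4.0.16 (filterByExpr, minimum count 10, 14124 tested genes; TMM scaling; quasi-likelihood F test, 3 residual degrees of freedom, common biological coefficient of variation 0.167), with Benjamini-Hochberg adjustment over all tested genes. Intervals are 2.22 SE on either side. CPM are scaled to counts in tested genes. Exact permutation tests were not used, because with 2 libraries in each group their smallest two-sided p is 0.333. Alternatives were DESeq2 1.42.0, limma 3.58.1 (voom), RLE scaling, no filter, the 2 groups alone, a replicate block, corrections for transcript length or GC content, other minimum counts, and each library left out.

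C2H2 fingers and KRAB positions were found by pattern in coding sequence of GENCODE M21 translated with Biopython 1.88, the longest per gene; promoters are RefSeq's. The GENCODE build may differ from the authors'. Library medians used log2(CPM + 0.1).

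In each comparison the text names the 5 members per direction with the smallest unadjusted p whose groups do not overlap, the 8 highest per kilobase, the 6 widest ranges, Zfp57, Zfp345 and Zfp715, and members of the role lists; of the silencing list, the 3 smallest p per comparison, Trim28 and Setdb1. Some role list members are not printed. Zfp637, Zfp503, Zfp712, Zfp462, Zfp827, Zfp616 and Chd4 fall outside this rule and were chosen after their values were seen. The members, lists and rules were chosen with earlier results of these data known.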

Additional observations from a re-analysis of the deposited data

How the results depend on the processing

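None of the alternatives run turned the sign of the members' median in any comparison. Without a filter on low counts edgeR called 1, 2 and 3 members in the order of the comparisons (Zfp345; Zfp345 and Zfp961; Zfp395, Zfp616 and Zfp715), and 18 and 25 stood at an unadjusted p under 0.05 in the first 2. DESeq2 called 1 in the second (Zfp345) and 1 in the third (Zfp715), and 0 in the first. RLE scaling, limma-voom, the 2 groups alone, the length and GC corrections and higher minimum counts called 0. With the GC correction the second comparison held 7 members at an unadjusted p under 0.05. The cause of these shifts was not tested. Each library was also left out in turn. Where it belonged to a compared group, the fit compared a lone library whose spread was taken from the other groups. Counts of members called or at an unadjusted p under 0.05 in such a fit say nothing of stability. Fits without a library of the group not compared kept 2 libraries on each side. The medians ranged from -0.07 to -0.009, from -0.147 to -0.026 and from -0.166 to -0.064. The libraries that moved a count by over 1.5 times were control 2 (4 in the first and 6 in the third), Sudan I 2 (9 in the second) and melatonin 1 (35 and 39). The small Zfp57 difference turned to -0.005 in the first comparison without Sudan I library 1, and to -0.021 and -0.019 in the second without either library numbered 2 (ranges -0.005 to 0.101 and -0.021 to 0.093). Zfp961 in Sudan I against control went from 0.32 to 0.20 without Sudan I library 2. With melatonin against control, leaving out 1 library gave 0.16 to 0.46 for Zfp341 and 0.03 to 0.14 for Zfp57. Other named genes that 1 library moved by over 1.5 times are given with their values in the results. Role list members named for that alone were not rerun.

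Deviations of same-numbered libraries correlated at 0.05, 0.07 and -0.06, which gave no sign of pairing by replicate number. With 2 libraries per group this cannot settle whether libraries were paired. The codes in the column headers differ from the replicate numbers, and a pairing by those codes was not tested. With a replicate block 13, 17 and 26 members stood at an unadjusted p under 0.05, the medians were -0.023, -0.074 and -0.122, and 0 were called.

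With 2 libraries per group and 3 residual degrees of freedom, the precision is limited for the 103 members under 10 CPM, and neither the origin of the libraries nor the strand setting of the counts is known.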
